A study of Mus musculus with 12 samples.

Results

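A set of 10 amino acid transporter genes of the mouse, of the 23893 genes counted, were followed across cortical neuron cultures that had lost topoisomerase I, had been treated with the topoisomerase I inhibitor topotecan, or both. The members were chosen by their symbols, and selected on measured values: the names were listed with the differences of these libraries from vehicle-treated controls in view, among genes that are mostly known targets of the transcription factor ATF4. Differences of single members from the vehicle-treated controls are therefore given below as a description without p-values, and counts of members past a threshold in them are printed beside the share of all genes with nothing read from them. The comparisons that leave those controls out are given with their tests, although the values of their groups were known too when the names were listed.

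The 12 polyA RNA-seq libraries came from cortical neurons of E13.5-15.5 mouse embryos, with C57BL6 as the labelled strain and C57BL6/J in the labelled growth protocol. Per the study's methods, both genotypes were cultures from floxed Top1 animals infected on day 3 in vitro with a lentivirus, which carried tdTomato in the cultures that the labels call wild-type (WT) and tdTomato with CRE recombinase in the Top1 cKO cultures, each under the CaMKIIα promoter, which limited expression to neurons. The stated transduction was 85 to 90%, so untransduced neurons and cells in which that promoter is silent keep Top1. On day 15 each genotype received 300 nM topotecan or vehicle (0.003% DMSO), and RNA was taken 3 days later, which gave 4 groups of 3 libraries. The controls are WT-Veh, topotecan alone is WT-Topot, deletion alone is Top1 cKO-Veh, and both together are Top1 cKO-Topot; below, "with topotecan", "with deletion" and "with both" stand for these last 3 groups. Nothing states that replicates were separate animals, so p-values measure the spread between these cultures, which edgeR partly pools over genes. Libraries held 1730164 to 4583777 counts. Top1 itself was at 117 to 163 CPM (counts per 1000000 counts of the library, scaled by TMM for the composition of the libraries) in WT-Veh and 129 to 140 in WT-Topot, and at 27.1 to 44.0 after deletion and 28.4 to 37.5 after deletion with topotecan, which matches the labels. Summed neuron markers were at 7074 to 9693 CPM in every library, microglia markers at 3.01 to 26.0 and astrocyte markers at 1151 to 6296. In such mixed cultures fewer cells of a type and less RNA per cell cannot be told apart.

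Amino acids cross the plasma membrane mainly through carriers. Several carriers of the SLC7 family form heterodimers with the glycoprotein SLC3A2. Members of SLC1, SLC6 and SLC38 move their cargo with sodium, and the cationic carriers SLC7A1 and SLC7A3 work without a partner. When amino acids run short or eIF2α is phosphorylated, ATF4 is translated and raises transcription of many transporters, amino acid synthesis enzymes and aminoacyl-tRNA synthetases. In neurons these carriers supply arginine, large neutral amino acids, cystine for glutathione, glutamine, serine and glycine.

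The 10 genes span 6.81 kb (Slc7a3) to 78.7 kb (Slc7a11) in build NCBIM37 (mm9), the build of the counts. In that annotation Slc7a3 lies at chrX:98274549-98281359 on the minus strand, Slc7a1 at chr5:149138986-149211480 (minus), Slc38a2 at chr15:96517825-96530129 (minus), Slc7a11 at chr3:50168858-50247535 (minus) and Slc6a9 at chr4:117507111-117547803 (plus). Counts were taken over exons. Of the exon bases of Slc6a9, 27.8% are shared with Ccdc24 on the opposite strand, and the strand setting of the counting is not given in the sources used here, so reads there could belong to either gene. Ccdc24 was at 0 to 3.02 CPM in every library. B4galt2, also on the opposite strand, shares 0.9% of the exon bases of Slc6a9 and was at 76.1 to 118 CPM. Gm17114, a processed transcript on that strand too, shares 9.9%, and its level was not looked up.

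Levels between genes were compared per kilobase of exon. In WT-Veh the heavy chain Slc3a2 was highest at 103 ± 4.28 CPM per kb (SD, n = 3), followed by the leucine and large neutral amino acid carrier Slc7a5 at 85.1 ± 15.7 and the alanine, serine and cysteine carrier Slc1a4 at 65.7 ± 3.94. Neighbours among these 3 overlapped between libraries. Slc7a1 at 37.7 ± 6.44 and Slc38a2 at 37.0 ± 6.79 could not be ordered, and Slc7a3 stood below them at 18.4 ± 3.71. Slc6a9 at 8.96 ± 2.81, Slc7a6 at 7.29 ± 2.86, Slc7a11 at 5.01 ± 1.26 and Slc1a5 at 1.99 ± 2.49 overlapped each with the next. By its mean Slc3a2 was first in all 4 groups. Slc7a3 was sixth by its mean in WT-Veh, seventh in WT-Topot, where it overlapped Slc7a6 and Slc6a9, and ninth in both Top1 cKO groups, where with deletion it overlapped Slc6a9 and Slc1a5.

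**Figure D1:**
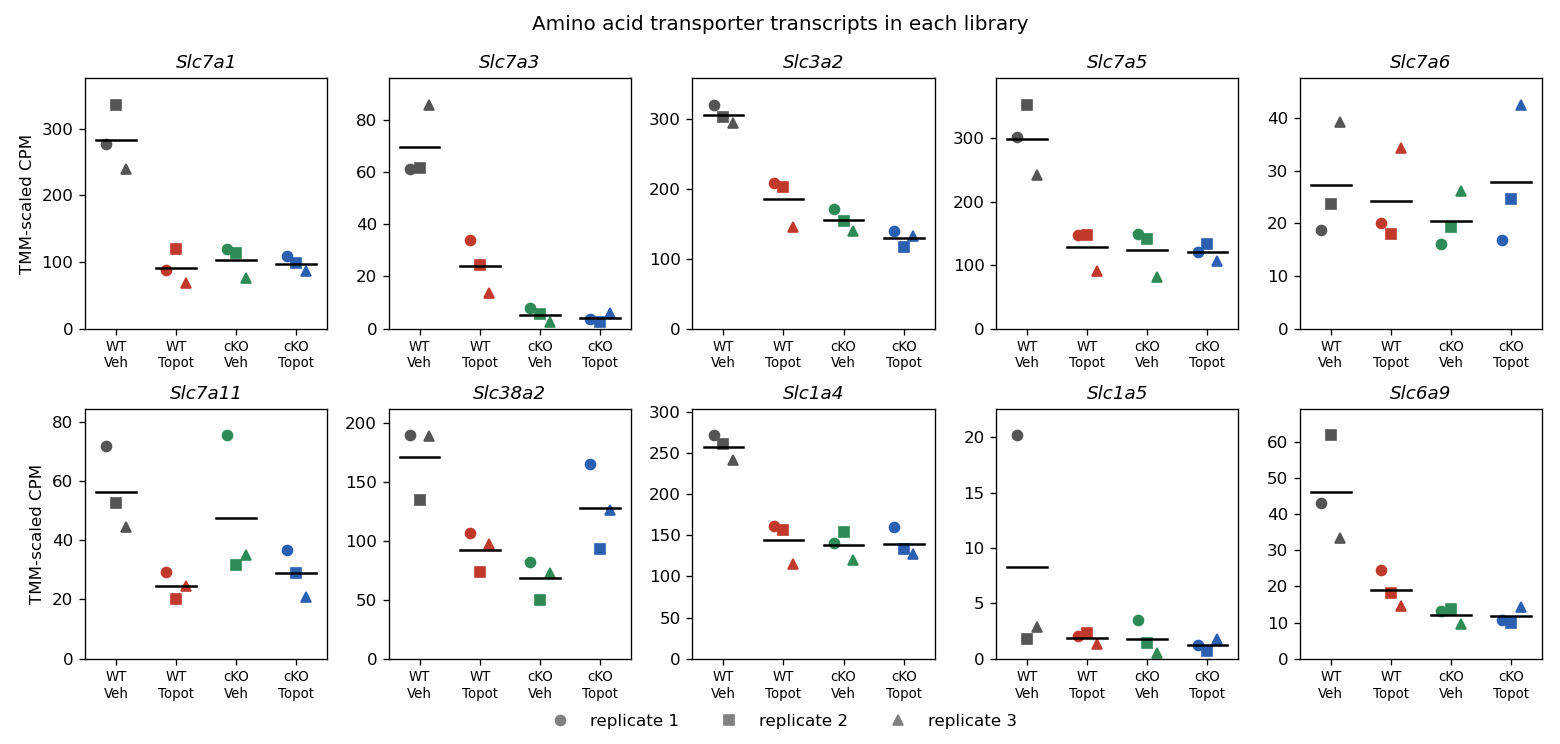
TMM-scaled CPM (y axis, linear from 0, one scale per gene) of the 10 transporter genes in each of the 12 libraries, in the 4 groups, with the replicate number as the symbol and the group mean as a line. Slc7a3 is at 2.51 to 7.82 CPM in Top1 cKO-Veh against 13.7 to 33.8 in WT-Topot, Slc38a2 is at 93.0 to 165 CPM with both against 50.2 to 82.5 with deletion, and 1 WT-Veh library sets the mean of Slc1a5.

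The promoters are shown because most members are known ATF4 targets and most were lower together against WT-Veh. ATF4 binds with C/EBP partners to a composite element whose core is written TGATGNAAN here and was searched on both strands. RefSeq promoters of build GRCm38.p6, each from 250 bases before to 50 bases after a transcription start, were found for 7 of the 10 members in 11 windows, and not for Slc7a3, Slc7a5 and Slc1a5. The core was in 2 of the 11 windows, those of Slc7a11 and Slc1a4, and in 3.95% of all 32851 promoters. The stricter form TGATGCAAT was in none of the 11 and in 0.192% of all. Slc7a11 held 2 cores, at bases -66 to -58 on the given strand and -48 to -40 on the opposite strand, and Slc1a4 held 1 on the opposite strand across the start site, from -5 to 4. The windows of Slc7a1, Slc3a2, Slc7a6, Slc6a9 and Slc38a2 held no core. Whether a core bears on the level of a member was not tested. The third sequence printed below, of Slc38a2, is an example of a window without a core. All 3 read 5′ to 3′ on the minus strand, with core matches in capitals, from base -110 to -1 (Slc7a11 and Slc38a2) or -70 to 10 (Slc1a4) of the start, at chr3:50443614-50443723 for Slc7a11, chr11:20332704-20332783 for Slc1a4 and chr15:96699729-96699838 for Slc38a2. A match is a run of letters and not a measured binding site. Sequence outside the windows was not searched, so a window without a core does not mean that the gene lacks the element.
Slc7a11: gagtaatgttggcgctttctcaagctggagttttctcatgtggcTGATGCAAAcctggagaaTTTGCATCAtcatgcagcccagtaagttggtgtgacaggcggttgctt
Slc1a4: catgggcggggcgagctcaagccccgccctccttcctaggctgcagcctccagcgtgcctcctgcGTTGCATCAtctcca
Slc38a2: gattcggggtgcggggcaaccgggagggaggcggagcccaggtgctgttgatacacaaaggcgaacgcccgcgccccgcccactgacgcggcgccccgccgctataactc

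Against WT-Veh, most of the transporters were lower in all 3 other groups, and the size of the difference set the members apart from each other. The median log2 fold change of the 10 was -1.20 with topotecan, -1.29 with deletion and -1.25 with both, beside 0.03, 0.00 and 0.02 over all 13720 genes that averaged 1 CPM or more. All 10 were negative in the first 2 comparisons and 9 of 10 in the last, in which Slc7a6 was at 0.08. These 3 comparisons share the WT-Veh libraries, so their likeness is not a separate result.

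The members were listed with the contrasts against WT-Veh known, so nothing is read from how many passed a threshold in them. Past an adjusted p of 0.01 in edgeR's quasi-likelihood test over all genes, 6 members were lower and 0 higher in WT-Topot, where 2.04% of all genes were lower and 0.682% higher. In Top1 cKO-Veh 3 were lower (Slc7a1, Slc7a3 and Slc6a9) and 0 higher, beside 0.126% and 0.046% of all genes. In Top1 cKO-Topot 6 were lower and 0 higher, beside 1.21% and 0.473%. Libraries with the same replicate number deviated together, and with the number as a block the counts lower were 9, 8 and 8, beside 5%, 2.95% and 4.02% of all genes. At an unadjusted p under 0.05, 0 members were higher in each of the 3 comparisons, and DESeq2 and edgeR's exact test called 0 higher.

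Of the cationic carriers, Slc7a3 was apart between the genotypes with and without topotecan, and Slc7a1 only without it. Slc7a1, the widely expressed arginine and lysine carrier, was at 277, 335 and 239 CPM in WT-Veh (replicates 1 to 3), 87.1, 119.9 and 67.7 with topotecan, 119.7, 113.4 and 75.2 with deletion and 108, 98.3 and 86.1 with both. Every WT-Veh library was above every other library, and the other 3 groups overlapped. Slc7a3, a cationic carrier found mainly in brain, was at 61.1, 61.8 and 85.8 CPM in WT-Veh, 33.8, 24.3 and 13.7 with topotecan, 7.82, 5.50 and 2.51 with deletion and 3.58, 2.66 and 6.12 with both. Its WT-Topot libraries lay between WT-Veh and the Top1 cKO groups with no overlap, and the 2 Top1 cKO groups overlapped. Of the 13720 genes averaging 1 CPM or more, 13.2% had every WT-Topot library below all of WT-Veh. WT-Topot was above Top1 cKO-Veh without overlap in 12.1%, and Top1 cKO-Topot below WT-Topot in 14.1%.

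The log2 fold change of Slc7a3 from WT-Veh was -1.51 (SE 0.273) with topotecan, -3.67 (SE 0.327) with deletion and -4.07 (SE 0.323) with both, whereas that of Slc7a1 was -1.62, -1.46 and -1.52. In CPM per kb of exon, Slc7a3 made up 26.8 to 41.7% of the sum of the pair in WT-Veh and 28.7 to 43.6% with topotecan. It made up 6.22 to 11.5% with deletion and 5.10 to 12.4% with both. The shares of the WT and Top1 cKO libraries did not overlap. Slc7a3 in the Top1 cKO groups rests on 5 to 24 reads a library.

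The heavy chain and its light chains did not share 1 pattern. Slc3a2 was at 295 to 320 CPM in WT-Veh, 146 to 208 with topotecan, 140 to 172 with deletion and 117 to 140 with both, with log2 fold changes from WT-Veh of -0.72, -0.98 and -1.21. Slc7a5, the light chain for leucine and other large neutral amino acids, was at 242 to 352, 90.8 to 148, 80.7 to 150 and 107 to 134 CPM in the same order of groups, with log2 fold changes of -1.21, -1.26 and -1.29. Per kilobase, Slc3a2 was set against the summed light chains among the members, Slc7a5, Slc7a6 and Slc7a11. SLC7 genes outside the members, such as Slc7a8 at a mean of 113 CPM over all libraries, were left out of the sum. The ratio was 1.08 ± 0.140 in WT-Veh, 1.38 ± 0.0461 with topotecan, 1.20 ± 0.205 with deletion and 0.995 ± 0.146 with both (SD, n = 3). The WT-Topot ratios, 1.32 to 1.40, were above all those of WT-Veh and Top1 cKO-Topot and overlapped those of Top1 cKO-Veh.

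Slc7a6, the light chain that exchanges cationic for neutral amino acids, did not go with the others. It was at 18.7, 23.7 and 39.2 CPM in WT-Veh, 20.1, 18.0 and 34.3 with topotecan, 16.03, 19.2 and 26.1 with deletion and 16.7, 24.6 and 42.4 with both. The highest library of each group was replicate 3, and all groups overlapped. Its log2 fold changes of -0.15, -0.40 and 0.08 had SEs of 0.314 to 0.336.

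Slc7a11, the cystine and glutamate exchanger that feeds glutathione synthesis, overlapped its control level with deletion and not with topotecan. It was at 72.0, 52.6 and 44.3 CPM in WT-Veh, 29.2, 20.3 and 24.4 with topotecan, 75.5, 31.6 and 35.1 with deletion and 36.6, 28.9 and 21.0 with both. WT-Topot lay below all libraries of WT-Veh, as for 13.2% of genes averaging 1 CPM or more, and of Top1 cKO-Veh, as for 12.3%. Top1 cKO-Veh overlapped WT-Veh. The log2 fold change from WT-Veh was -1.20 with topotecan, -0.26 with deletion and -0.95 with both, and without replicate 1 of Top1 cKO-Veh the second was -0.78.

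The sum of 10 astrocyte markers was also lower with topotecan. It was at 4976, 3548 and 2411 CPM in WT-Veh, 1965, 1469 and 1151 with topotecan, 6296, 3919 and 2728 with deletion and 3218, 2596 and 1723 with both, with all of them detected in every library. The 2 libraries with the highest sums, replicate 1 of each vehicle group, were the 2 with the most Slc7a11. Replicate 2 of Top1 cKO-Veh, at 3919 CPM of markers, had 31.6 CPM of Slc7a11, and replicate 3 of WT-Veh, at 2411, had 44.3. In WT-Topot against WT-Veh 7 of the 10 markers had a negative log2 fold change, so not every marker fell. At an adjusted p under 0.01 in edgeR's quasi-likelihood test, 3 (Gfap, Slc1a3 and Slc1a2) were lower and 0 higher. Of all genes, 2.04% were lower and 0.682% higher. The part of these cells in the level of Slc7a11 was not tested.

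**Figure D2:**
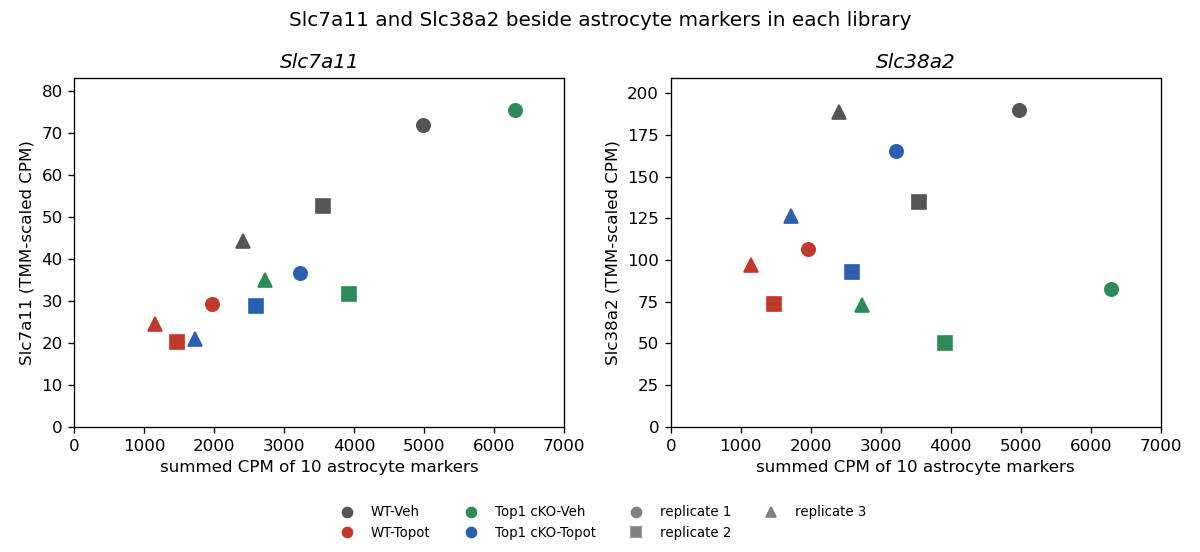
Slc7a11 (left) and Slc38a2 (right), each as TMM-scaled CPM on the y axis, against the summed CPM of 10 astrocyte markers on the x axis, 1 point per library, with colour for the group and symbol for the replicate number. The replicate 1 libraries of WT-Veh and Top1 cKO-Veh, at 4976 and 6296 CPM of markers, hold the 2 highest Slc7a11 values, 72.0 and 75.5, while Slc38a2 in those libraries is 189.9 and 82.5.

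Among the sodium-coupled carriers, Slc1a4 was at 241 to 272 CPM in WT-Veh, 115 to 162 with topotecan, 120.2 to 154 with deletion and 127 to 160.1 with both. The 3 groups other than WT-Veh had means of 144, 138 and 140.02 CPM and overlapped. Slc6a9, the glycine carrier GLYT1, was at 43.0, 61.8 and 33.4 CPM in WT-Veh, 24.5, 18.0 and 14.6 with topotecan, 13.3, 13.7 and 9.52 with deletion and 10.8, 9.96 and 14.4 with both. WT-Topot lay between WT-Veh and the Top1 cKO groups without overlap, the same order as for Slc7a3. The gap was narrow, with 34 reads (14.56 CPM) in the lowest WT-Topot library and 33 (14.43 CPM) in the highest of Top1 cKO-Topot. The log2 fold changes of Slc6a9 from WT-Veh were -1.27, -1.90 and -1.96.

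Slc1a5, the glutamine and neutral amino acid carrier ASCT2, was hardly expressed. It had 69, 4 and 5 reads in WT-Veh, or 20.2, 1.75 and 2.88 CPM, and 1 to 9 reads in each library of the other groups. Without replicate 1 of WT-Veh the log2 fold change from WT-Veh went from -2.18 to -0.26 with topotecan, from -2.25 to -0.32 with deletion and from -2.84 to -0.91 with both, where 3 of 3 pairs were lower. The same library held 58.5 CPM of the collagen gene Col1a1, against 3.07 and 1.73 in the other WT-Veh libraries, a gene looked up after the values were seen. Col1a1 was also at 35.2 CPM in replicate 1 of Top1 cKO-Veh and 28.5 in replicate 1 of WT-Topot, where Slc1a5 was at 3.52 and 2.01. Col3a1, Serpina3n and Lcn2, looked up with it, were also highest in replicate 1 of WT-Veh, at 93.0, 350 and 69.3 CPM. In replicate 1 of Top1 cKO-Veh and of WT-Topot, Col3a1 was at 61.0 and 26.8 CPM and Serpina3n at 143 and 109. Lcn2 was at 4.69 and 2.68 CPM there. The part of other cells in the level of Slc1a5 was not tested.

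**Figure D3:**
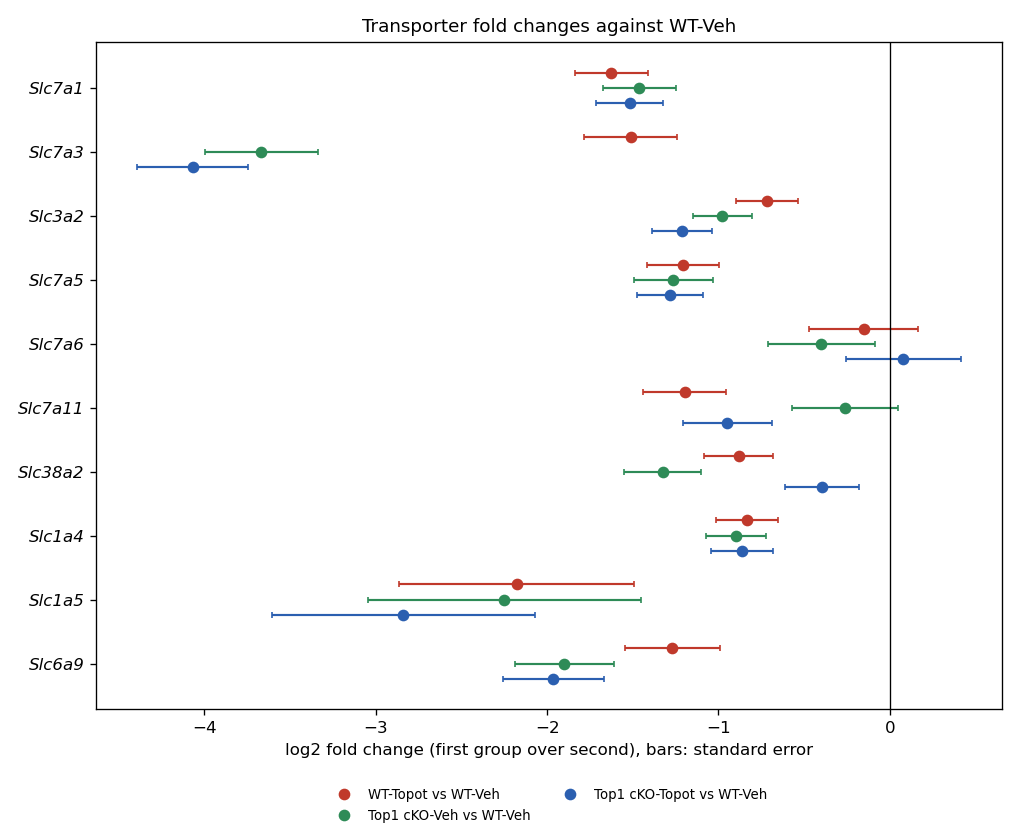
Log2 fold change (x axis, points, with the standard error as bars) of each transporter gene (y axis) with topotecan, with deletion and with both against the same 3 WT-Veh libraries, given as a description. Slc7a3 is at -1.51 in WT-Topot and at -3.67 and -4.07 in the Top1 cKO groups, Slc38a2 is nearest to 0 in Top1 cKO-Topot at -0.40, and Slc7a6 stays within 0.40 of 0.

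Slc38a2, the sodium-coupled glutamine and alanine carrier SNAT2, was at 189.9, 135 and 189 CPM in WT-Veh, 106.6, 73.6 and 97.2 with topotecan, 82.5, 50.2 and 73.2 with deletion and 165, 93.0 and 126 with both. Top1 cKO-Topot lay above all libraries of Top1 cKO-Veh, as for 5.17% of genes averaging 1 CPM or more, and overlapped both WT groups. By replicate number it was below WT-Veh in 3 of 3 pairs, with differences of -0.58 to -0.20 on the log2(CPM + 1) scale, and above WT-Topot in 3 of 3, by 0.33 to 0.63. The log2 fold change from WT-Veh was -0.88 (SE 0.203) with topotecan, -1.32 (SE 0.224) with deletion and -0.40 (SE 0.217) with both.

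The comparisons without WT-Veh asked whether topotecan still changed a transporter once Top1 was deleted, and whether drug and deletion left it at different levels. In Top1 cKO-Topot against Top1 cKO-Veh, 0 of the 10 members passed in either direction by edgeR's quasi-likelihood test, beside 0.00837% of all genes lower and 0% higher. At an unadjusted p under 0.05, 1 was lower (Slc7a11) and 1 higher (Slc38a2), and DESeq2 and edgeR's exact test each called 0. The median log2 fold change of the members was -0.07 against 0.00 over all genes.

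Slc38a2 was the exception when the replicate number entered as a block. Its log2 fold change between these groups was 0.92 (SE 0.235, adjusted p = 0.281, edgeR quasi-likelihood) without the block and 0.91 (SE 0.126, adjusted p = 1.13e-09) with it, higher in 3 of 3 pairs by 0.78 to 0.99 on the log2(CPM + 1) scale. It was the 1 member higher with the block, beside 0.858% of all genes. As 3 pairs alone say little about spread, this p-value rests largely on the spread that edgeR pools over genes. The same holds for every p-value given with the block. Slc7a11 was at -0.70 (adjusted p = 1, edgeR) without the block and -0.63 (adjusted p = 0.0125) with it, lower in 3 of 3 pairs, and did not pass, and without replicate 1 of Top1 cKO-Veh it was -0.19. Without the block 0 of the 10 astrocyte markers were lower and 0 higher, beside 0.00837% and 0% of all genes, with a median log2 fold change of -0.77. With the block 6 of the 10 were lower and 0 higher. The part of astrocytes in the change of Slc7a11 was not tested.

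WT-Topot against Top1 cKO-Veh set drug and deletion side by side. Slc7a3 was higher with the drug than with deletion by 2.14 on the log2 scale (SE 0.392, adjusted p = 0.00381, edgeR quasi-likelihood), and the pairs by replicate number differed by 1.96 to 2.07. It was the 1 member higher, with 0 lower, beside 0.293% and 1.23% of all genes, and at an unadjusted p under 0.05, 1 (Slc7a11) was lower, with 0 by DESeq2 or the exact test. The call was lost when genes of low count were filtered out (adjusted p = 0.0169, edgeR), without replicate 1 of WT-Topot (adjusted p = 0.0161) and without replicate 2 of Top1 cKO-Veh (adjusted p = 0.0150), with log2 fold changes of 2.14, 1.84 and 2.17.

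Slc7a11, with the drug against deletion, had a log2 fold change of -0.94 (adjusted p = 0.119, edgeR) without the block and -0.88 (SE 0.188, adjusted p = 6.91e-04) with it. With the block the members lower were thus 1 and those higher 1, beside 4.8% and 2.93% of all genes. Without replicate 1 of Top1 cKO-Veh, the library with the most astrocyte marker RNA, the unblocked log2 fold change was -0.43, and without replicate 3 of that group it passed at -1.11 (adjusted p = 0.00335, edgeR). In this comparison, without the block, 3 of 10 astrocyte markers were lower, beside 1.23% of all genes. The median of the 10 was -1.32. Slc6a9 was at 0.63 (adjusted p = 0.409, edgeR) and Slc38a2 at 0.44 (adjusted p = 0.452, and 0.0222 with the block), and neither passed.

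Under topotecan, deletion changed Slc7a3. In Top1 cKO-Topot against WT-Topot it fell by 2.57 on the log2 scale (SE 0.389, adjusted p = 1.62e-04, edgeR quasi-likelihood), lower in 3 of 3 pairs, and it passed under every alternative run. It was the 1 member lower, with 0 higher, beside 1.03% and 1.46% of all genes. At an unadjusted p under 0.05, 3 members (Slc7a3, Slc3a2 and Slc6a9) were lower and 1 (Slc38a2) higher, and DESeq2 and the exact test each called 0 higher. Slc6a9 was at -0.72 (SE 0.306, adjusted p = 0.248, edgeR; 0.0509 with the block), lower in 3 of 3 pairs, and Slc38a2 at 0.46 (SE 0.207, adjusted p = 0.279; 0.0116 with the block), and neither passed. With the block 2 were lower, beside 4.08% of all genes, the added one being Slc3a2 at -0.51 (SE 0.122, adjusted p = 0.00166, edgeR), which had been -0.52 (adjusted p = 0.105) without it. The 3 Slc3a2 pairs differed by -0.79 to -0.13 on the log2(CPM + 1) scale.

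**Figure D4:**
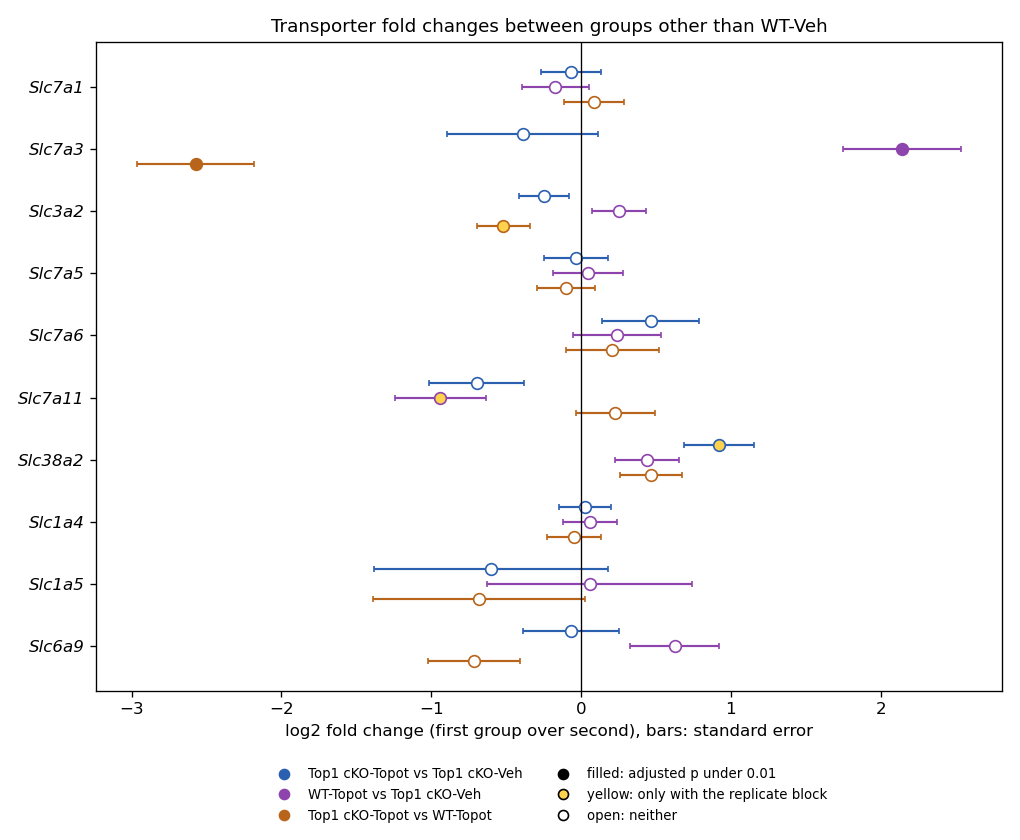
Log2 fold change (x axis, points, with the standard error as bars) of each transporter gene (y axis) in the 3 comparisons that leave out WT-Veh, filled where the adjusted p was under 0.01, yellow where it was so only with the replicate block and open elsewhere. Slc7a3 passes at 2.14 and -2.57, and Slc38a2 at 0.92, Slc7a11 at -0.94 and Slc3a2 at -0.52 pass only with the block.

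The effect of topotecan in Top1 cKO cells minus that in WT cells was positive for all 10 members, with a median of 1.13 on the log2 scale against -0.03 over all genes. For Slc1a5 it was 1.57, and -0.36 without replicate 1 of WT-Veh. This difference uses WT-Veh and is a description. Without the block 1 member (Slc38a2, 1.80) was past the threshold on the higher side and 0 on the lower, beside 0.398% and 0.0377% of all genes, and with it 4 were higher (Slc7a1, Slc7a5, Slc38a2 and Slc1a4), beside 2.44%. Slc7a1 was at 1.55, Slc7a5 at 1.17 and Slc1a4 at 0.85 without the block, and between the 2 Top1 cKO groups these 3 were at -0.07 (SE 0.201), -0.03 (SE 0.215) and 0.03 (SE 0.174).

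Other genes of amino acid supply gave the setting, from lists chosen with earlier results known, so nothing is read from how many passed a threshold. Of 36 amino acid response genes, 35 were at 1 CPM or more, with medians of -1.0003, -1.17 and -1.19 against WT-Veh. With topotecan 12 of the 36 were lower, with deletion 4 and with both 15, beside 2.04%, 0.126% and 1.21% of all genes. In each comparison 0 were higher, beside 0.682%, 0.046% and 0.473%. With the block the counts lower were 25, 27 and 25, beside 5%, 2.95% and 4.02% of all genes. Their summed CPM was 3376 to 3898 in WT-Veh and 1678 to 2170 in the other libraries. Asparagine synthetase Asns was at 269 to 281 CPM in WT-Veh, 100.2 to 119.97 with topotecan, 107 to 127 with deletion and 73.1 to 129 with both. The mitochondrial serine hydroxymethyltransferase Shmt2 was at 51.3 to 65.5, 16.3 to 21.5, 7.52 to 10.9 and 7.97 to 11.6 in the same order. Chac1, which degrades glutathione, was at 59.1 to 65.1, 7.37 to 17.5, 9.16 to 13.03 and 7.31 to 16.6.

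Atf4 itself did not follow that order. It was at 451 to 577 CPM in WT-Veh, 146 to 189 with topotecan, 241 to 305 with deletion and 255 to 363 with both, and was higher in Top1 cKO-Topot than in WT-Topot by 0.99 (SE 0.176, adjusted p = 9.07e-04, edgeR quasi-likelihood). Of the 36 response genes Atf4 was the only one called in either direction in that comparison without the block. With the block 2 were lower and 1 higher, and at an unadjusted p under 0.05 (edgeR, without the block) 7 were lower and 1 higher. In Top1 cKO-Topot against Top1 cKO-Veh 0 of the 36 were called by edgeR, 2 were lower and 0 higher at an unadjusted p under 0.05, and with the block 1 was lower and 0 higher, beside the 1 member, Slc38a2, that was higher.

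The 42 amino acid transporters outside the 10 members, 25 of them at 1 CPM or more, gave medians near 0, at 0.01 with topotecan, 0.05 with deletion and -0.08 with both against WT-Veh. In WT-Topot 3 were lower, beside 2.04% of all genes. They were the glutamate carriers of astrocytes Slc1a2 (-1.39) and Slc1a3 (-1.52) and the vesicular neutral amino acid carrier Slc6a17 (-1.02). In the 2 Top1 cKO groups 0 were called in either direction by edgeR, where 5 (deletion) and 7 (both) had an unadjusted p under 0.05. With the block 4, 1 and 3 were lower with topotecan, deletion and both, beside 5%, 2.95% and 4.02% of all genes. On the higher side the block gave 3, 5 and 3. Slc1a2 and Slc1a3 are also among the 10 astrocyte markers. In Top1 cKO-Topot against WT-Topot the proline carrier Slc6a7 (-0.92) and the neutral amino acid carrier Slc6a15 (-1.08) were lower. Slc1a2 (1.17) and the lysosomal carrier Slc36a1 (0.96) were higher. These 2 lower and 2 higher stood beside 1.03% and 1.46% of all genes. With the block 3 were lower, beside 4.08%, and 6 higher. Of 9 NRF2 target genes, which share Slc7a11 as a known target, and of 6 genes for eIF2 kinases and phosphatase subunits, 0 were called in any of the 7 comparisons by edgeR without the block, with 0 to 3 and 0 to 1 genes at an unadjusted p under 0.05.

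**Figure D5:**
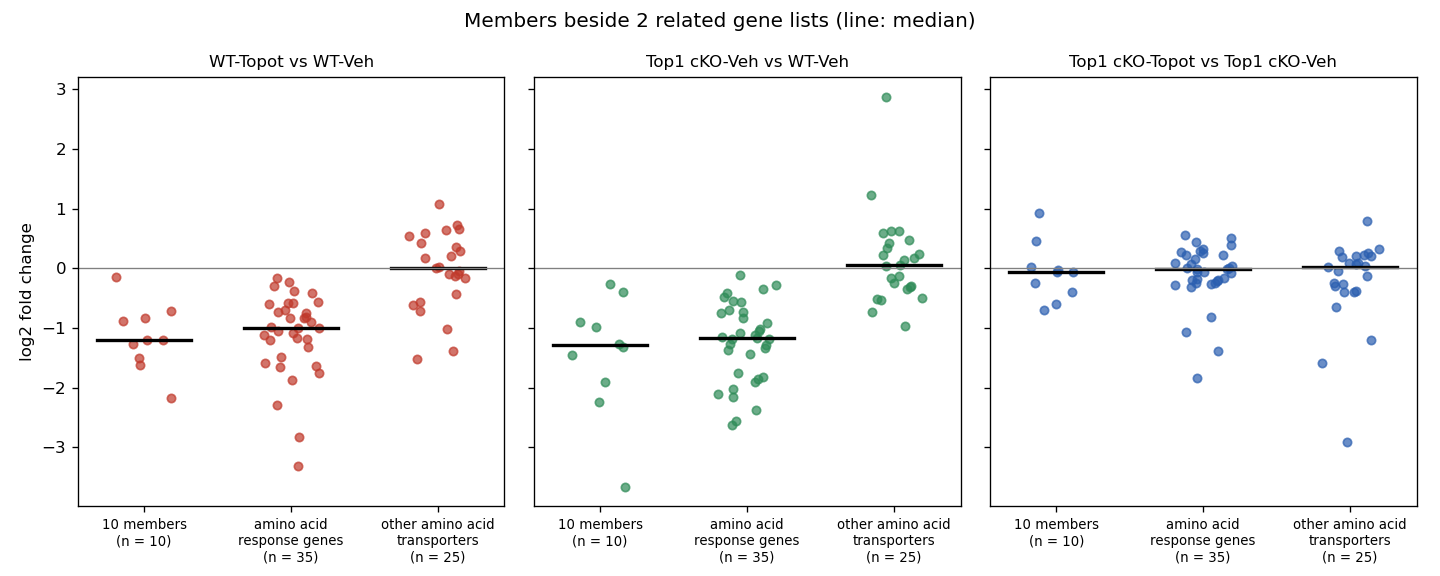
Log2 fold change (y axis, points are genes averaging 1 CPM or more, the line is the median) for the 10 members, 35 amino acid response genes and 25 other amino acid transporters in WT-Topot against WT-Veh, Top1 cKO-Veh against WT-Veh and Top1 cKO-Topot against Top1 cKO-Veh. Members have medians of -1.20, -1.29 and -0.07, response genes -1.0003, -1.17 and -0.01, and the other transporters 0.01, 0.05 and 0.02.

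Over the 12 libraries, the members' likeness to each other was measured as Pearson's r between a gene's log2(CPM + 1) and the mean z-score of the other members with at least 5 CPM. It was 0.94 for Slc1a4, 0.92 for Slc6a9 and Slc3a2, 0.91 for Slc7a1 and Slc7a5, 0.85 for Slc7a3, 0.67 for Slc1a5, 0.62 for Slc38a2, 0.50 for Slc7a11 and -0.07 for Slc7a6. The points share libraries, depth and the gap between WT-Veh and the rest. Among 11115 other genes the 10 most alike the profile of 9 members were Ttl (0.970), Aacs (0.967), Cyb5r1 (0.966), Asns (0.959), Shmt2 (0.958), Shank3 (0.957), Map9 (0.957), Yars (0.949), Mthfd2 (0.948) and Gnb1 (0.944). Asns, Shmt2, Yars and Mthfd2 are also among the 36 response genes.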

How the data were processed

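The authors deposited whole-number read counts per gene symbol for 12 libraries. Per the study's methods and the submitters' processing notes, polyA TruSeq reads were filtered with TagDust, aligned to mm9 with TopHat, cleared of ribosomal reads and counted over RefSeq exons; versions, the counter and its strand setting are not given in the sources used here. Counts were analysed as deposited with edgeR 4.0.16 (R 4.3.3), with TMM scaling, no filter, the quasi-likelihood test on the libraries of the groups compared (all 12 for the interaction) and Benjamini-Hochberg adjustment over 23893 genes, at 0.01, with a prior count of 0.125. The SE is the log2 fold change over the root of its F. CPM are TMM-scaled over 12 libraries, and 1 count was worth 0.229 to 0.576 CPM.

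The 10 members and all gene lists were chosen with earlier results of these data known. Genes eligible to be named were the members, Top1, genes overlapping a member, up to 6 of each list by smallest p and up to 6 called per comparison, and the 10 most alike genes; not all are named. Same-numbered libraries of different groups deviated together (18 correlations of 0.261 to 0.485, and -0.384 to -0.0494 over 36 pairs of different numbers, on 13720 genes), so the numbers were taken as pairing the cultures, though no source says what a number stands for. The deviations were taken from group means, so the negative range follows from the positive one and adds no separate support for pairing. Replicate pairs within a group differed by more than sampling noise. Alternatives were the replicate block, RLE size factors, filterByExpr, DESeq2 1.42.0, edgeR's exact test, a fit on all libraries and leaving out each library. The fit was tested on simulated data first.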

Additional observations from a re-analysis of the deposited data

Results flagged for a closer look

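Slc38a2 was flagged because the effect of topotecan differed between the genotypes by an interaction term over all 12 libraries. The log2 fold change with topotecan in Top1 cKO cells minus that in WT cells was 1.80 (SE 0.325), made up of -0.88 in WT cells, where 3 of 3 pairs were lower, and 0.92 in Top1 cKO cells, where 3 of 3 pairs were higher. The members were listed with this contrast known, so it is given as a value. Groups of 3 were too small for the formal check of single outlying libraries, and each library was left out in turn instead.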

How the results depend on the processing

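No member that passed changed direction under any alternative: of 867 values for single members 834 kept their direction and 33, none past the threshold, changed sign. With the replicate block, members lower in Top1 cKO-Veh against WT-Veh went from 3 to 8, members higher in Top1 cKO-Topot against Top1 cKO-Veh from 0 to 1, members lower in WT-Topot against Top1 cKO-Veh from 0 to 1, members lower in Top1 cKO-Topot against WT-Topot from 1 to 2, and members higher in the interaction from 1 to 4. For Top1 cKO-Veh against WT-Veh the count lower was 1 with filterByExpr, 7 with DESeq2, 7 with the exact test and 6 on all 12 libraries. For the interaction it was 2 higher with RLE size factors, 0 with filterByExpr and 3 with DESeq2, and filterByExpr also took the member higher in WT-Topot against Top1 cKO-Veh from 1 to 0. FilterByExpr leaves out Slc1a5 in each of the 7 comparisons. Leaving out 1 library gave 3 to 8 members lower in WT-Topot (3 without WT-Topot replicate 2 or 3), 1 to 6 in Top1 cKO-Veh (1 without replicate 2 of either group, 6 without WT-Veh replicate 3 or Top1 cKO-Veh replicate 1) and 5 to 8 in Top1 cKO-Topot against WT-Veh. It gave 0 to 1 lower (1 without Top1 cKO-Veh replicate 3) and 0 to 1 higher in WT-Topot against Top1 cKO-Veh (0 without WT-Topot replicate 1 or Top1 cKO-Veh replicate 2), and 0 to 2 higher in the interaction (2 without WT-Veh replicate 3 or Top1 cKO-Veh replicate 1, 0 without WT-Topot replicate 3, Top1 cKO-Veh replicate 2, or Top1 cKO-Topot replicate 1 or 3). The cause was not tested. Depth limits Slc1a5 most, at 1 to 9 reads outside WT-Veh.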
